A study of Saccharomyces cerevisiae with 10 samples.

Results

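The genes described here are the seripauperins PAU1 to PAU24 and 7 related mannoprotein genes, TIR1 to TIR4, DAN1, DAN4 and TIP1, of the budding yeast Saccharomyces cerevisiae. They were chosen by open reading frame identifier, and the family was picked with earlier results of the same arrays in view, among them low values of several PAU genes in ptc2 and ptc5 over wild type. Of 31 genes, 29 were among the 6212 frames listed. Of these, 26 had a value on at least 1 array, 20 PAU genes and 6 of the others. PAU7 (YAR020C), PAU22 (YPL282C) and DAN1 (YJR150C) were listed without a value on any array. PAU8 (YAL068C) and PAU9 (YBL108C-A) were not listed under these identifiers. Because these arrays played a part in the choice, the ratios over wild type are given as a description, without a test.

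The study compared 5 mutant strains, ptc1, ptc2, ptc3, ptc4 and ptc5, with the wild-type strain (wt). The strains are named after genes of the type 2C protein phosphatases, a class of enzymes that take phosphate groups off serines and threonines of their substrates. All strains were in log phase in YPD rich medium at 28 °C, harvested at an absorbance between 0.6 and 0.8. The sources used here give neither the strain background, nor the alleles, nor the aeration of the cultures. For each mutant there were 2 two-colour arrays shared with wt RNA. The mutant RNA carried Cy5 on array 1 and Cy3 on array 2. Values are log2 ratios of mutant over wt, so a positive value means higher in the mutant. The 2 arrays of a mutant were taken as a dye swap of 1 RNA extract, and the SD beside a mean covers these arrays only (n = 2, technical). All 5 comparisons use wt RNA, which the design text counts as 1 sample, so its deviations would enter all of them.

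Seripauperins are small secreted proteins, named for being poor in serine, that belong to the same larger family as the TIR and DAN cell wall mannoproteins. In aerated cells most genes of the family are kept low through heme and oxygen, by repressors such as Rox1 and Mot3 that work with the Tup1 and Cyc8 corepressor, while the sterol-responsive activator Upc2 turns many of them on when oxygen is scarce. The TIR and DAN mannoproteins are then anchored in the wall, where they take the place of mannoproteins of aerated cells. Many PAU genes lie near chromosome ends in near-identical copies, so an array spot for one of them can also bind RNA of another, and its ratio may not belong to that gene alone.

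The arrays held between 4195 and 4802 values each. The median of all values lay between −0.029 and 0.035 on 9 arrays and at 0.23 on array 2 of ptc2. PTC1, PTC3 and PTC5 were below 0 on both arrays of their own mutant. PTC2 was at −7.86 on the 1 ptc2 array with a value. PTC4 had none in ptc4, so no value of PTC4 backs the ptc4 label. Of 220 possible values of the 22 PAU genes listed on the array, 177 were present, or 80.5%, against 73.5% for all frames. Dim spots had been removed before deposit, and the signal behind each ratio was not used here.

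PAU genes were lower in ptc2 and in ptc5 than in wt. Over the 17 PAU genes with both arrays in ptc2, the mean log2 ratio ran from −1.40 to 0.10, with a median of −1.11, against a median of 0.12 over the 4086 genes measured on both arrays. In ptc5 the 16 PAU genes ran from −1.33 to −0.014, with a median of −1.04, against 0.024 over 4245 genes. Below 0 on both arrays were 15 of 17 PAU genes in ptc2, where 14.6% of all genes were, and 14 of 16 in ptc5, where 23.3% of all genes were. A size rule asked for a 2-fold change in the mean and a 1.5-fold change, on the same side, on each array. By it, 10 PAU genes were lower in ptc2 and 8 in ptc5, and no member was higher in either. The rule took 0.538% of all genes as lower and 0.441% as higher in ptc2, and 0.636% as lower and 0.0707% as higher in ptc5. These comparisons were part of the choice of the family, so nothing is read from the gap between the shares.

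**Figure D1:**
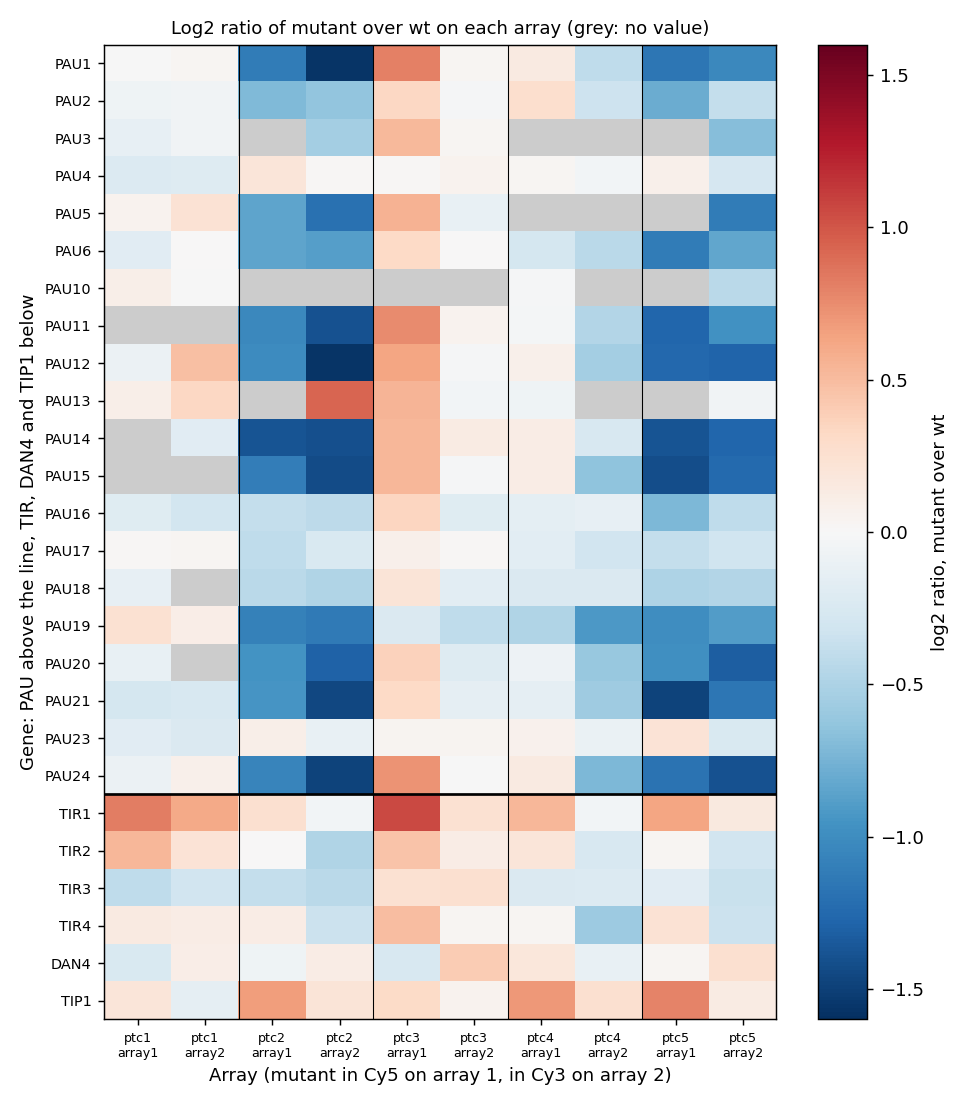
Log2 ratio of mutant over wt (colour) for the 26 genes with a value (rows) on the 10 arrays (columns), with grey where there was no value. Most PAU genes are blue on both arrays of ptc2 and ptc5, PAU4 and PAU23 stay pale on all 10 arrays, and PAU19 is blue on both arrays of ptc3 and ptc4 as well.

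PAU14 (YIL176C) had the lowest mean of the family in ptc2. Its log2 ratio was −1.39 and −1.41 on the ptc2 arrays, a 2.64-fold lower level, and −1.39 and −1.27 on the ptc5 arrays, a 2.51-fold lower one. PAU1 (YJL223C) was at −1.12 and −1.57 in ptc2, a mean of −1.34 ± 0.32, and at −1.15 and −1.03 in ptc5, a mean of −1.09 ± 0.086. No array of either mutant put PAU1 or PAU14 above −1.03.

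PAU12 (YGR294W) was at −1.005 and −1.56 in ptc2 and at −1.26 and −1.28 in ptc5. PAU24 (YBR301W), also called DAN3, was at −1.06 and −1.49 in ptc2 and at −1.18 and −1.40 in ptc5. PAU15 (YIR041W) was at −1.10 and −1.43 in ptc2 and at −1.41 and −1.25 in ptc5. All 3 genes were at least 2-fold lower on both arrays of both mutants, although the spread between the ptc2 arrays, with SDs between 0.23 and 0.40, was wider than that between the ptc5 arrays, between 0.011 and 0.16.

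PAU11 (YGL261C), PAU20 (YOL161C) and PAU21 (YOR394W) also met the size rule in both mutants. PAU11 had means of −1.21 ± 0.26 in ptc2 and −1.12 ± 0.21 in ptc5. PAU20 had means of −1.13 ± 0.24 and −1.15 ± 0.23 in the same order, and PAU21 means of −1.20 ± 0.37 and −1.32 ± 0.23. PAU5 (YFL020C) met the rule in ptc2, at −0.84 and −1.19, and had 1 value in ptc5, −1.12. PAU19 (YMR325W) met it in ptc2, at −1.08 and −1.13, and missed it in ptc5, at −0.99 and −0.89. Just outside the rule lay PAU6 (YNR076W), with means of −0.86 ± 0.029 in ptc2 and −0.98 ± 0.21 in ptc5.

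A further group of PAU genes had smaller ratios on the same side of 0. PAU2 (YEL049W) had means of −0.67 ± 0.057 in ptc2 and −0.59 ± 0.29 in ptc5. PAU16 (YKL224C), PAU17 (YLL025W) and PAU18 (YLL064C) had means of −0.40, −0.33 and −0.45 in ptc2 and of −0.57, −0.35 and −0.48 in ptc5. All 16 array values of these 4 genes in the 2 mutants were below 0.

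PAU4 (YLR461W) and PAU23 (YLR037C, also called DAN2) did not share the low values. PAU4 was at 0.19 and 0.019 in ptc2 and at 0.078 and −0.27 in ptc5, and its 10 values lay between −0.27 and 0.19. PAU23 was at 0.096 and −0.12 in ptc2 and at 0.22 and −0.25 in ptc5, and its 10 values lay between −0.25 and 0.22. Of the 22 members with 8 or more arrays in common with another, these had the closest match, with a mean absolute difference of 0.061 over 10 arrays. In ptc1 both were below 0 on both arrays, PAU4 at −0.22 and −0.21 and PAU23 at −0.19 and −0.23. PAU3, PAU10 and PAU13 were measured on too few arrays to place. PAU13 (YHL046C) had 0.93 on the second ptc2 array, the highest PAU value of the series, and −0.057 on the second ptc5 array. PAU3 (YCR104W) had −0.55 and −0.68 on those arrays, and PAU10 (YDR542W) had no ptc2 value and −0.43 on the second ptc5 array.

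Pairs of PAU genes could be nearly alike across the arrays. PAU12 and PAU15 differed by 0.081 on average over the 8 arrays that measured both, and by at most 0.15. PAU16 and PAU18 differed by 0.088 over 9 arrays, and PAU1 and PAU11 by 0.097 over 8. By comparison, the replicate SD of the family between dye-swapped arrays had a median between 0.066 in ptc1 and 0.34 in ptc3. Close ratios alone do not show shared hybridisation, which was not tested. As many PAU genes are near-identical copies, the 8 or 10 genes counted above may not be as many separate results. Sequences of the frames were not used here. Of the 24 PAU frames in RefSeq, 13 are 363 bases long and 5 are 375 bases long, in a range from 129 to 495 bases. PAU4, at 363 bases, and PAU23, at 375, do not stand apart by length.

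In ptc3 the PAU genes were above wt on array 1 and near 0 on array 2. The median over 19 genes was 0.37 on array 1 and −0.015 on array 2, and 18 of 19 genes were higher on array 1 than on array 2, against 52.9% of all genes. PAU1 was at 0.81 and 0.026, PAU11 at 0.75 and 0.060, and PAU24 at 0.71 and −0.012. The mean over the arrays had a median of 0.16, within the median SD of 0.34 between them. PAU19 was the 1 PAU gene with a mean below 0, at −0.23 and −0.40. No member met the size rule in ptc3, where 0.0685% of all genes were taken as higher and 0.0685% as lower.

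In ptc4 the family had a median of −0.24 over 16 genes, all with means below 0, against 0.0050 over all genes. The arrays differed here too. The median was 0.0030 on array 1 and −0.42 on array 2, and 8 of 16 genes were below 0 on both arrays, against 23.4% of all genes. PAU19 was lowest, at −0.48 and −0.92, a mean of −0.70 ± 0.31. PAU24 was at 0.14 and −0.72, and PAU14 at 0.12 and −0.26. The size rule took no member in ptc4, and of all genes 0.120% as lower and 0.0723% as higher.

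In ptc1 the PAU genes lay around 0, between −0.27 and 0.21, with a median of −0.0010 over 15 genes, against −0.028 over all genes. PAU19 was at 0.24 and 0.11 and PAU12 at −0.093 and 0.47. PAU21 was at −0.28 and −0.25 and PAU16 at −0.20 and −0.29. The size rule took no member in ptc1, where it took 0.477% of all genes as higher and 0.0217% as lower. PAU11 and PAU15 had no value in ptc1, and PAU14, PAU18 and PAU20 had 1 each, between −0.18 and −0.12.

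**Figure D2:**
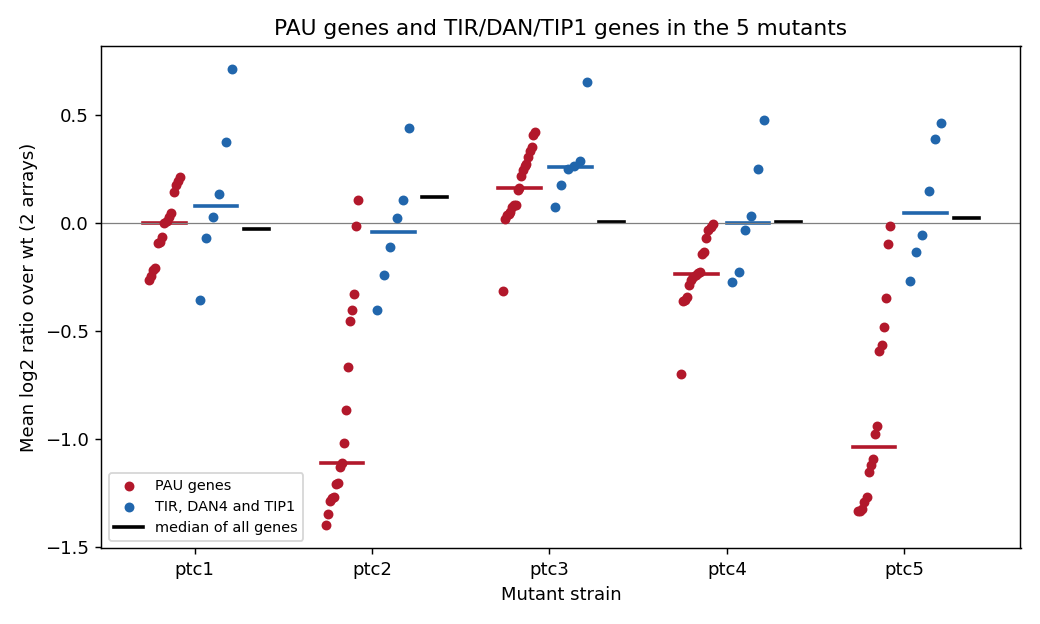
Mean log2 ratio over wt of the 2 arrays (vertical axis) for each PAU gene (red) and each TIR, DAN4 or TIP1 gene (blue) in the 5 mutants, with coloured bars at the medians and a black bar at the median of all genes. The PAU medians are at −1.11 in ptc2 and −1.04 in ptc5, while the TIR/DAN/TIP1 medians lie between −0.044 and 0.26 in all 5 mutants.

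As a group, the TIR, DAN and TIP1 genes did not show the low values of ptc2 and ptc5. TIR3 was below 0 on both arrays of these mutants. Its ptc2 mean of −0.41 was close to those of PAU16 and PAU18, −0.40 and −0.45. TIR1 (YER011W), a wall mannoprotein induced by cold and by lack of oxygen, was at 0.25 and −0.043 in ptc2 and at 0.62 and 0.15 in ptc5. It was furthest above wt in ptc1, at 0.81 and 0.61, a mean of 0.71 ± 0.15 or 1.64-fold, and was at 1.05 and 0.25 in ptc3 and 0.53 and −0.039 in ptc4. TIR2 (YOR010C), a related cold-induced mannoprotein, was at 0.53 and 0.22 in ptc1 and 0.45 and 0.12 in ptc3. It was at 0.0090 and −0.49 in ptc2, 0.19 and −0.25 in ptc4, and 0.037 and −0.30 in ptc5, and these 3 means, −0.24, −0.031 and −0.13, were smaller than their SDs of 0.35, 0.32 and 0.24.

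TIR3 (YIL011W) and TIR4 (YOR009W) encode mannoproteins needed for growth without oxygen. TIR3 was the TIR gene whose arrays agreed best. It was at −0.40 and −0.31 in ptc1, −0.38 and −0.43 in ptc2, −0.23 and −0.23 in ptc4, and −0.18 and −0.36 in ptc5, and at 0.24 and 0.26 in ptc3. It was thus below 0 on both arrays of 4 mutants and above 0 on both arrays of ptc3. TIR4 was at 0.15 and 0.12 in ptc1 and at 0.50 and 0.030 in ptc3. In ptc2, ptc4 and ptc5 it was above 0 on array 1 and below 0 on array 2, at 0.12 and −0.34, 0.034 and −0.58, and 0.23 and −0.35.

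DAN4 (YJR151C), a mannoprotein of cells grown without oxygen, had means between −0.072 and 0.15, all within an SD of 0. TIP1 (YBR067C), a wall mannoprotein induced by temperature shifts, was above 0 on both arrays of ptc2, ptc3, ptc4 and ptc5. It was at 0.67 and 0.20 in ptc2, 0.30 and 0.050 in ptc3, 0.69 and 0.26 in ptc4, and 0.80 and 0.13 in ptc5. In ptc1 it was at 0.20 and −0.14. None of these 6 genes met the size rule in any mutant, and as it takes between 0.0217% and 0.636% of all genes in a direction, nothing is read from that count.

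The PAU median minus the TIR/DAN/TIP1 median was −1.06 ± 0.0042 in ptc2 and −1.08 ± 0.25 in ptc5. The difference was −0.24 ± 0.043 in ptc4, −0.094 ± 0.13 in ptc3 and −0.080 ± 0.11 in ptc1. In ptc2, 13 of 17 PAU genes lay below the lowest TIR/DAN/TIP1 gene, TIR3 at −0.41, and in ptc5 14 of 16 lay below TIR3 at −0.27. PAU4 and PAU23 were above it in both mutants. Taken on each array alone over the same genes, the difference was −1.005 and −0.999 in ptc2, −1.19 and −0.84 in ptc5, −0.19 and −0.25 in ptc4, −0.0070 and −0.20 in ptc3, and −0.26 and −0.10 in ptc1. It was below 0 on all 10 arrays, but in ptc1 both array values lie further from 0 than the difference between medians of the gene means, and in ptc3 the arrays differ by more than the value itself. The very small SD in ptc2 is that of these 2 differences and not of single genes, whose SDs there had a median of 0.15 for PAU. The ptc2 value of −1.06, a difference between medians of gene means, also lies further from 0 than both array values. That SD is therefore not its precision.

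Array number went with dye orientation, and many members differed between the arrays, not all in the same direction. TIR1, TIR2, TIR4, TIP1 and PAU23 were higher on array 1 than on array 2 in all 5 mutants. TIR3 was higher on array 1 in 2 of 5 mutants and DAN4 in 1 of 5. The PAU genes were higher on array 1 in 15 of 17 cases in ptc2, 18 of 19 in ptc3 and 14 of 16 in ptc4, but in 4 of 15 in ptc1 and 5 of 16 in ptc5. Over all genes the shares were 27.1% in ptc2, 52.9% in ptc3, 53.0% in ptc4, 50.9% in ptc1 and 56.3% in ptc5. The part of the dyes in these differences was not tested. PAU values in ptc2 and ptc5 were low in both orientations, with medians of −0.94 and −1.19 on the ptc2 arrays and −1.06 and −0.93 on the ptc5 arrays.

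**Figure D3:**
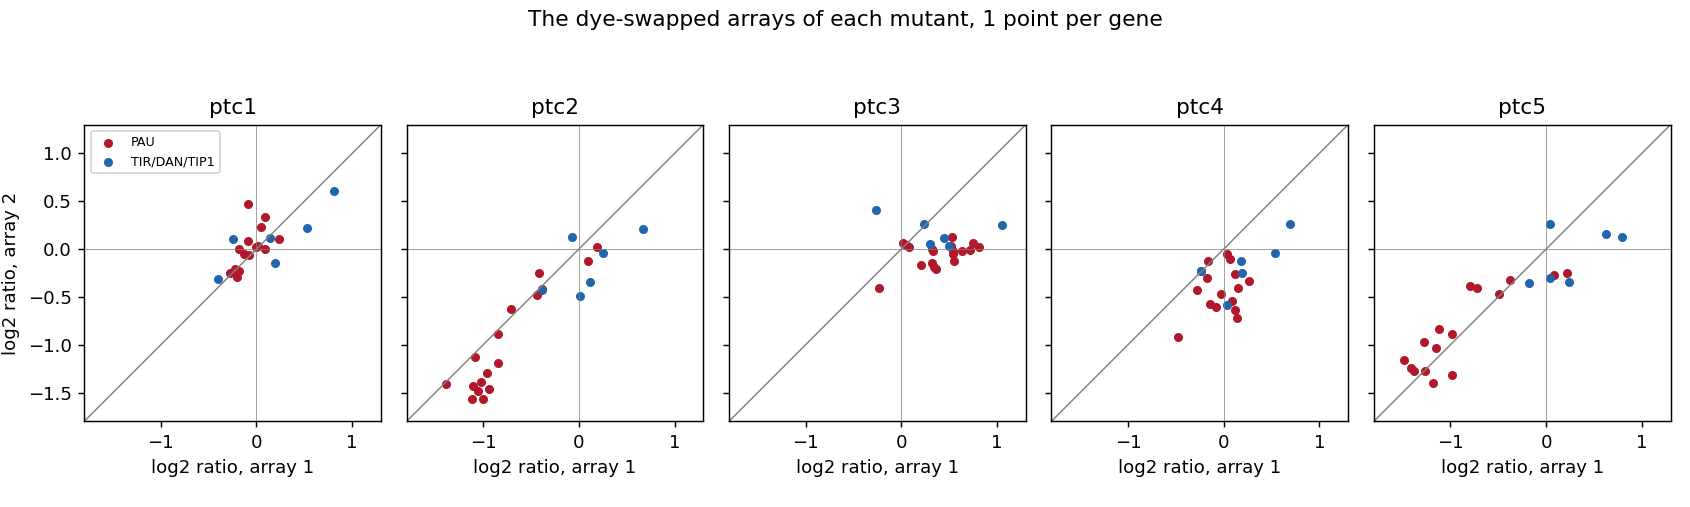
Log2 ratio on array 1 (mutant in Cy5, horizontal axis) against array 2 (mutant in Cy3, vertical axis), 1 panel per mutant and 1 point per gene measured on both, PAU in red and TIR, DAN4 and TIP1 in blue, with the grey diagonal where the arrays agree. Most PAU points lie at the lower left in ptc2 and ptc5, and to the right of the diagonal near 0 on array 2 in ptc3.

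The mutants were also compared with each other, which takes out the wt RNA. A linear model (limma) on the per-mutant means covered the 3606 genes with a value on all arrays, 17 of them members, 11 PAU genes and all 6 measured others. With Benjamini-Hochberg adjustment over all genes, no member passed in any mutant against the mean of the other 4. The fit called 3.41% of all genes in ptc1, 0% in ptc2 and ptc4 and 0.0277% in ptc3 and ptc5. At an unadjusted limma p under 0.05, ptc1 had 2 of the 17 members, against 741 of all 3606 genes. By the same limit ptc2 had 1 member against 414 genes, and ptc3 had 3 members against 83 genes. Neither ptc4 nor ptc5 had a member under it, against 5 genes for ptc4 and 85 for ptc5. PAU19 came closest. It was at 0.17 in ptc1 against −0.77 in the mean of the others, a difference of 0.94 with a limma adjusted p = 0.064. The spread in this fit is that among the means of the other 4 mutants. For ptc2 these hold ptc5, and for ptc5 they hold ptc2, both with low PAU values, which widens the spread. Such a fit, also with so few degrees of freedom, could miss differences of this size. A p above the threshold does not show that the mutants were alike.

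With the arrays as samples and array number as a replicate block, limma called 5 members in ptc1, where it called 11.0% of all genes, and 5 in ptc2, where it called 1.47%. It called 6 members in ptc3 and 5 members in ptc5, with 0.582% of all genes in each, and none in ptc4, with 0.0555%. The spread in that fit is technical, because both arrays of a mutant were taken to hold the same extract. In ptc2 the 5 were PAU1, PAU12, PAU19, PAU21 and PAU24, all lower, and in ptc5 they were PAU1, PAU6, PAU12, PAU21 and PAU24, all lower. In ptc3 the PAU genes PAU1, PAU6, PAU12, PAU21 and PAU24 and also TIR3 were called as higher, and in ptc1 PAU1, PAU12, PAU19, PAU24 and TIR2. TIR3 was at 0.25 in ptc3 and at −0.32 in the mean of the others, a difference of 0.56 with a limma adjusted p = 0.040 in that fit. For ptc1 and ptc3 the mean of the other mutants holds both ptc2 and ptc5. These fits use the arrays that were in view when the family was picked, so their counts describe the members and are no independent support.

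Most PAU genes lie near chromosome ends, which played no part in the choice. By gene order in the RefSeq table, 19 of 24 are among the outermost 10 protein-coding genes of a chromosome arm, whereas DAN4 and DAN1 are 11th and 12th from an end and the TIR genes and TIP1 lie further in. The 13 outermost PAU genes measured on both arrays had a median of −1.20 in ptc2, and the 4 further in had a median of −0.50. In ptc5 the medians were −1.12 over 13 and −0.35 over 3. Position did not sort them fully. PAU5, the 46th gene from its end, averaged −1.02 in ptc2, while PAU4, the 5th, averaged 0.10.

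Other genes near the ends had medians close to 0 in both mutants. Their share of low genes was larger than further in but rested on few genes. The other genes among the outermost 10 had a median of −0.00050 in ptc2 (130 genes) and −0.032 in ptc5 (137 genes), against 0.13 and 0.028 for genes further in. The size rule took 3 of these outer genes (2.31%) as lower in ptc2 and 5 (3.65%) in ptc5, against 0.216% and 0.312% of genes further in. Genes within 3 places of a measured PAU gene had medians of 0.086 in ptc2 and −0.094 in ptc5, over 44 genes in each. The rule took 2 of these neighbours (4.55%) as lower in ptc2 and 4 (9.09%) in ptc5, where 65.9% of the neighbours had means below 0. The 2 in ptc2 were the isomaltase genes IMA3 and IMA4, which are near-identical and may not be separate results. In ptc5 the 4 held IMA3 and IMA4 and also HSP33, on the arm of PAU21, at −1.11 and −1.18.

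**Figure D4:**
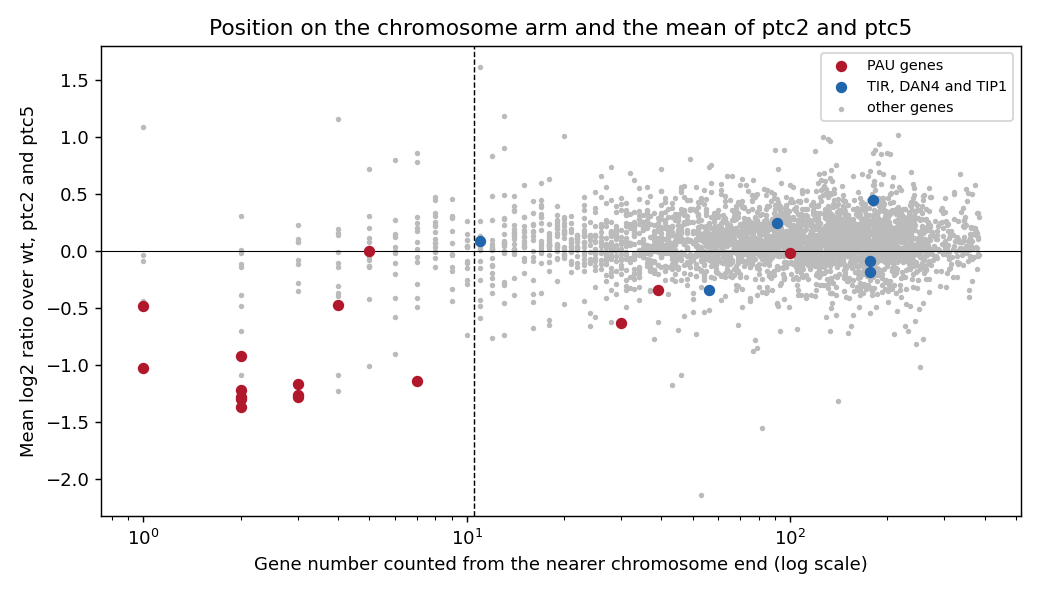
Mean log2 ratio over wt of ptc2 and ptc5 (vertical axis) against the number of the gene counted from the nearer chromosome end (horizontal axis, log scale), for PAU genes (red), TIR, DAN4 and TIP1 (blue) and other genes (grey), with a dashed line after the outermost 10 genes. Low PAU points stand left of the line among many grey points around 0, and PAU4 is the red point near 0 left of the line.

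Up to 6 other outer genes were named for the lowest means over ptc2 and ptc5. Their low values in these mutants follow from that choice. IMA4, an isomaltase gene that is the 4th from the end of the arm on which PAU1 is the 2nd, was at −1.11 and −1.23 in ptc2 and −1.26 and −0.76 in ptc5. IMA3, the 4th gene of the arm on which PAU14 is the 2nd, was at −1.29 and −1.17 in ptc2 and −1.42 and −1.02 in ptc5. In ptc3 IMA4 was at 0.65 and 0.049 and IMA3 at 0.70 and −0.0060, against 0.81 and 0.026 for PAU1. IMA3 and IMA4 are near-identical themselves. VTH2, which lies between PAU1 and IMA4 and was looked at after these values were seen, was at −0.10 on the 1 ptc2 array with a value and at −0.040 and 0.089 in ptc5.

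YHL049C, on the arm of PAU13, averaged −0.89 ± 0.087 in ptc2 and −1.29 ± 0.26 in ptc5. PAU13 did not share these low values, at 0.93 and −0.057 on the 1 array it had in each. HSP33, on the arm of PAU21, averaged −0.87 ± 0.30 and −1.15 ± 0.048 in the same mutants. MSC1 and OPT2, on arms whose ends hold no PAU gene, averaged −0.96 and −0.57 in ptc2 and −0.84 and −0.91 in ptc5. In ptc3 MSC1 was at −0.78 and −1.12, where PAU19 was at −0.23 and −0.40 and the other 18 PAU genes had means above 0.

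The listed regulators of oxygen- and sterol-responsive genes that were measured on both arrays of ptc2 all had means above 0 there. Of all 4086 genes, 2890 did so as well. MGA2 and SPT23 had means of 0.060 and 0.0065, below the median of 0.12 over all genes. Of 10 listed regulators of oxygen- and sterol-responsive genes, 6 had both arrays in ptc2, with a median of 0.25 against 0.12 over all genes, and 5 in ptc5, with a median of 0.078 against 0.024. None met the size rule in any mutant, which takes between 0.0217% and 0.636% of all genes in a direction, so that 0 of so few genes says little. TUP1, the corepressor gene, was at 0.35 and 0.77 in ptc2 and 0.24 and 0.021 in ptc5. ROX1, the repressor of hypoxic genes, was at 0.16 and 0.66 in ptc2 and 0.058 and −0.064 in ptc5. HAP1, a heme-dependent activator, averaged 0.14 in ptc2 and 0.31 in ptc5, and ECM22, a relative of UPC2, averaged 0.37 in ptc2. UPC2 itself had 0.14 on array 1 of ptc1 and −0.13 on array 2 of ptc5, and no other value. Regulators with 1 array in a mutant, looked at after their values were seen, were also found below 0. CYC8, the other corepressor gene, was at −0.44 on the 1 ptc2 array with a value and −0.67 on the 1 ptc5 array, and SUT1, a regulator of sterol uptake, at −0.54 and −0.24 on these. MOT3, the repressor gene, was at 0.55 on the 1 ptc2 array with a value, and at −0.75 and 0.33 in ptc5. The second ptc2 array lay high for all genes, with a median of 0.23, and each of TUP1, ROX1 and ECM22 had its higher ptc2 value there.

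Most genes had means above 0 in ptc2 and ptc5, 2890 of 4086 and 2345 of 4245, with medians of 0.12 and 0.024. Other genes induced at low oxygen or of sterol synthesis also had medians above 0 there. Over 15 listed genes, the median was 0.25 in ptc2 (10 measured on both arrays, 7 above 0) and 0.13 in ptc5 (11 measured, 8 above 0). None of the 15 met the size rule in any mutant. As the rule takes between 0.0217% and 0.636% of all genes in a direction, this too says little. NCP1, the reductase partner of the sterol demethylase, was at 0.78 and 1.18 in ptc2 and at 0.35 and −0.042 in ptc5. ERG11, the demethylase, averaged 0.57 ± 0.50 in ptc2 and 0.23 ± 0.068 in ptc5. CYC7, a cytochrome c isoform of low-oxygen cells, was below 0, at −0.89 and −0.060 in ptc2 and −1.17 and −0.34 in ptc5. COX5B, a cytochrome oxidase subunit of such cells, had no ptc2 value and was at −0.83 and −0.65 in ptc3.

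Among 6 wall mannoprotein genes of aerated cells, 5 were measured. SPI1, a stress-induced wall protein, was the gene below wt by the size rule in ptc2, at −1.31 and −1.28, and in ptc4, at −0.97 and −1.47, and was at −0.70 and −1.06 in ptc5. It was at 0.52 and 0.29 in ptc1 and −0.38 and −0.64 in ptc3. SED1 was above wt by the size rule in ptc1, at 1.77 and 1.06, and CCW14 averaged 0.75 ± 0.21 there. In ptc2 SED1 averaged −0.10 and CCW14 0.21, and in ptc5 they averaged −0.031 and 0.044. CCW12 was above 0 on array 1 and below 0 on array 2 in all 5 mutants.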

How the data were processed

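Two-colour arrays compared total RNA of 5 mutants with wt RNA, and cDNA was labelled from 8 µg of RNA, per the labels. The deposited values are log ratios, read as log2 of mutant over wt. The base and the direction are not stated. With natural logarithms the folds would be larger than stated. The direction was set by the low values of PTC1, PTC2, PTC3 and PTC5 in the mutants named after them. This takes each gene as lost or reduced in its mutant, though the alleles are not given. In ptc4 the direction comes from the label. The authors left out spots under 120 µm across or under 150 units of intensity in Cy3 and Cy5, as the labels' protocols state. The sources used here name no normalization, background correction or software. Values were used as deposited.

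Both arrays of a mutant were averaged. The per-mutant means of 3606 genes were fitted with limma 3.58.1 (R 4.3.3), setting each mutant against the average of the remaining 4, and genes were called at an adjusted p of 0.05 (3 residual degrees of freedom). The spread in this fit is that among the means of the other 4 mutants, so it holds differences between those mutants as well as technical ones. No label states separate cultures, so p-values cover only these RNA samples. The fit was tested on simulated data. Differences between arrays 1 and 2 correlated between all pairs of mutants, with r between 0.17 and 0.67, so array numbers pair the arrays. Symbols and gene order came from the RefSeq table of assembly R64, and no coordinates are given because the array's build is not named. The members, gene lists, rule and tests were chosen with earlier results of these data known. Named genes were all members, the genes PTC1 to PTC5, up to 4 genes per list by size, and up to 6 outer genes lowest in ptc2 and ptc5. The list gave CCW14 by a wrong identifier, which was corrected. Alternatives covered array centring, missing spots, the size rule, moderation, TIP1, arrays as samples, and leaving out an array number or a mutant.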

Additional observations from a re-analysis of the deposited data

How the results depend on the processing

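The number of arrays and extracts limits the precision, and signal over background was not used here. The PAU minus TIR/DAN/TIP1 difference stayed below 0 in all 5 mutants under every alternative run. In ptc2 it was −0.82 over members measured on all 10 arrays, −0.996 without TIP1, and −0.97 with members measured on 1 array also counted, an alternative chosen after seeing the data. Leaving out each array number gave a range from −1.005 to −0.94 in ptc2, from −1.19 to −0.77 in ptc5, from −0.20 to −0.0070 in ptc3 and from −0.27 to −0.11 in ptc1, so the ptc3 difference rests on array 2. It was −0.17 in ptc3 over members measured on all 10 arrays. With a 1.5-fold mean and both arrays of 1 sign, 1 member was higher in ptc1 (TIR1), 1 higher in ptc3 and 1 lower in ptc4, each against 0 by the main size rule. Leaving out array numbers gave 0 to 1 higher members in ptc3. Members lower in ptc2 numbered between 7 and 12 and in ptc5 between 8 and 11. The share of all genes past the altered size rules is not given here, so nothing is read from these counts. With arrays as samples, limma called 5 members in ptc1, 5 in ptc2, 6 in ptc3 and 5 in ptc5 with the replicate block, and 1 in ptc1 without it. Leaving out a mutant gave 0 to 1 members in ptc1, PAU19 without ptc3. No other count of members moved by over 1.5 times. Over all genes, limma called 123 in ptc1, against 395 with the replicate block, 101 without it, 56 with 1 array per mutant allowed, and 7 to 154 when an array number or a mutant was left out. In ptc2 it called 0 genes, against 53 with the block, and in ptc3 and ptc5 1 each, against 21 each. Averaging PAU copies with identical proteins was not run, because no sequences were used here. The cause of these changes was not tested.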
